A study of Mus musculus with 3 samples.

Results

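Smooth muscle cells (SMCs) selected for Sost, Acan and Susd5 transcripts were examined in the ascending aorta of young WT mice and of mice with the Marfan-like Fbn1mgR/mgR genotype. They were chosen cell by cell. A barcode had to show 600 to 5000 genes, at most 10% mitochondrial UMIs and an SMC profile, which meant a summed value of at least 150 UMIs per 10000 for Acta2, Myh11, Tagln, Cnn1, Myl9 and Tpm2, fewer than 10 for Dcn and no UMI of Ptprc or Pecam1. Cells that met these conditions are called gated SMCs. Among them, the selected SMCs had a sum of Sost, Acan and Susd5 of at least 5 UMIs per 10000 and stayed below 4 limits that remove other SMC states, with Rgs5 below 5, Tnnt2+Tcap below 2, Vcam1+Spp1 below 4 and Rbp4+Wif1 below 5. The rule kept 3632 cells, which was 28.1% of the 12913 gated SMCs and 13.9% of the 26158 cells that passed the filter, out of 33178 barcodes.

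All mice were C57BL/6J males killed at P45, and the tissue was pooled before digestion with elastase and collagenase. The WT library came from 3 mice, the mgR library from 3 Fbn1mgR/mgR mice, and the mgR-LOS library from 4 Fbn1mgR/mgR mice that drank 0.6 g/L losartan, a blocker of the angiotensin II type I receptor, from P16. The mgR allele is a germline allele that lowers fibrillin-1 expression, so it is not restricted to SMCs. For the mgR library it is not stated if vehicle was given. Each condition was 1 droplet library, so the libraries had no replicates, differences between them could not be tested, and genotype or drug cannot be told apart from the library. Intervals are 95% intervals, exact except for differences of shares, and cover counting error only. The libraries held 83338726 (WT), 123956320 (mgR) and 121436873 (mgR-LOS) UMIs, and 22, 29 and 46 barcodes were shared between WT and mgR, WT and mgR-LOS, and mgR and mgR-LOS. Selected SMCs carried a median of 14492.5 UMIs in WT, 15550 in mgR and 8622 in mgR-LOS, so values from mgR-LOS rest on shallower cells.

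Medial SMCs hold the aorta under tension with actin and myosin filaments that are anchored to elastic lamellae, and they make most of the elastin, collagen and proteoglycan around them. Sost encodes sclerostin, a secreted protein best known from osteocytes that binds the co-receptors Lrp5 and Lrp6 and blocks Wnt signaling. It is also made by SMCs of the aorta. Acan encodes aggrecan, the large chondroitin sulfate proteoglycan of cartilage that holds water in the matrix and is cut by Adamts proteases. Susd5 encodes a little-studied membrane protein with a sushi domain. Npnt encodes nephronectin, a basement membrane ligand of the integrin that contains the Itga8 chain, and Lmcd1 encodes a LIM-domain cofactor of transcription.

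The 3 genes that define the cells lie on different chromosomes of GRCm38. Sost (ENSMUSG00000001494) is on the minus strand of chromosome 11 from 101962458 to 101967015, Acan (ENSMUSG00000030607) on the plus strand of chromosome 7 from 79053483 to 79115099, and Susd5 (ENSMUSG00000086596) on the plus strand of chromosome 9 from 114057140 to 114098728. Their RefSeq promoters are printed because the 3 transcripts define the cells. Each window runs 5′ to 3′ from 250 bases before to 50 bases after the annotated start on GRCm38.p6, at chr11:101966966-101967265 for Sost, chr7:79052976-79053275 for Acan and chr9:114057104-114057403 for Susd5. The GENCODE starts of Acan and Susd5 differ from the RefSeq starts used here. That of Acan lies downstream of its window, and that of Susd5 lies upstream of the RefSeq start, within its window. Capitals mark the matches to CATTCC (the core of the MCAT element) and TGANTCA (the AP-1 element), which were searched on both strands with TATAAA and the CArG box of serum response factor.
Sost: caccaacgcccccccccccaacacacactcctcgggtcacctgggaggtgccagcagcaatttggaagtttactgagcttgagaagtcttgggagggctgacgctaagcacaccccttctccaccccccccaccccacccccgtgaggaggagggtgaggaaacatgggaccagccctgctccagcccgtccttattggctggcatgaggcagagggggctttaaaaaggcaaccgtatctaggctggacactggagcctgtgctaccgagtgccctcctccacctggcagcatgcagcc
Acan: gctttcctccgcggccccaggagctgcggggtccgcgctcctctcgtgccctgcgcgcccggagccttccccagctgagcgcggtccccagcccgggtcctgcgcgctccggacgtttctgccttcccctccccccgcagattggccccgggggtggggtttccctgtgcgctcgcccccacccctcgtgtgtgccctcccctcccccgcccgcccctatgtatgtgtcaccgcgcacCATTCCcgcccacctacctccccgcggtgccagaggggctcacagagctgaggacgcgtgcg
Susd5: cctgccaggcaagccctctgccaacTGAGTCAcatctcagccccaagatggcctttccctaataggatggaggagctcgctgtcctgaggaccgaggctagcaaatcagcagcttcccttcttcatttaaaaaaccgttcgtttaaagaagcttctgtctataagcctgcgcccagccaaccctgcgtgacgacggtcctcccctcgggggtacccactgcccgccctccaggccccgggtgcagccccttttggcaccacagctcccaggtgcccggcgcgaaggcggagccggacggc
The Acan window held 1 CATTCC, at -12 from the start, and the Susd5 window 1 TGANTCA, at -225. The Sost window held neither. No TATAAA and no CArG box was found in any of the 3 windows. Over all 32851 mouse promoter windows of this length, 14.7% held CATTCC, 7.81% TGANTCA, 13.6% TATAAA and 1.63% a CArG box. The windows were rich in G and C, at 62% for Sost, 74% for Acan and 61.7% for Susd5. These matches describe the letters and not binding.

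The sum of the 3 transcripts formed 1 broad distribution without a gap at the minimum of the rule. Its median over all gated SMCs was 10.2 UMIs per 10000 in WT, 12.2 in mgR and 8.17 in mgR-LOS, which is above the minimum in each library. Thus 81.7% (80.2 to 83.1) of gated SMCs reached the minimum in WT, 86.4% (85.1 to 87.6) in mgR and 70.0% (69.0 to 71.1) in mgR-LOS. Npnt and Lmcd1, which the rule does not use, were compared just inside and just outside the minimum. Npnt was somewhat higher inside in each library. No intervals were formed here and the groups of WT and mgR held few cells, so these differences may lie within counting error. In WT, the 50 cells with sums of 5 to 6 had 1194 CPM of Npnt and 365 CPM of Lmcd1, and the 36 cells with sums of 4 to 5 had 1110 and 417 CPM. In mgR, the 38 cells inside had 1105 CPM of Npnt against 953 CPM in the 46 outside, and in mgR-LOS the 207 inside had 1080 CPM against 978 CPM in the 241 outside. Lmcd1 was lower inside in WT and also in mgR, at 460 inside against 474 CPM outside. In mgR-LOS it was slightly higher inside, at 322 against 309 CPM.

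**Figure D1:**
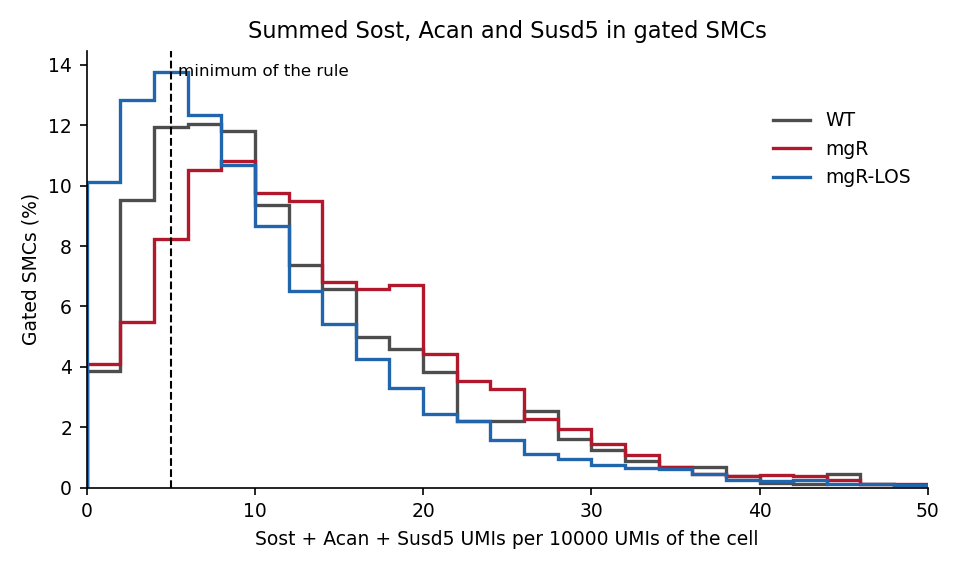
Share of gated SMCs (y axis, %) by their summed Sost, Acan and Susd5 UMIs per 10000 (x axis, steps of 2, values over 50 not drawn) in the WT, mgR and mgR-LOS libraries, with the minimum of 5 as a dashed line. All 3 curves run through the minimum without a gap, and the mgR curve lies to the right of the others, with medians of 10.2, 12.2 and 8.17 for WT, mgR and mgR-LOS.

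The limits on other SMC states did most of the selecting. Tnnt2+Tcap, troponin T and telethonin of striated muscle, reached 2 per 10000 in 60.5% of gated SMCs of WT, 51.9% of mgR and 54.9% of mgR-LOS. Rbp4+Wif1, a retinol carrier and a secreted Wnt inhibitor, reached 5 in 32.4% of WT but in 2.46% of mgR and 2.92% of mgR-LOS. Vcam1+Spp1, which mark modulated SMCs, reached 4 in 0.597% of WT, 10.9% of mgR and 2.30% of mgR-LOS. Rgs5 reached its limit in 5.09%, 1.39% and 2.76%. After all limits the selected SMCs were 18.8% (17.4 to 20.3) of gated SMCs in WT, 36.2% (34.5 to 38.0) in mgR and 28.6% (27.5 to 29.6) in mgR-LOS.

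The share was 17.4 percentage points higher in mgR than in WT (15.2 to 19.7) and differed by -7.69 points between mgR-LOS and mgR (-9.74 to -5.65). The first difference came down to 6.61 points (4.17 to 9.05) when the limit on Rbp4+Wif1 was dropped, with shares of 30.4%, 37.0% and 29.6% in WT, mgR and mgR-LOS, to 4.73 points when no limit was applied and to 7.998 points with at most 5% mitochondrial UMIs. The second was -4.26 points with a minimum of 3, -4.75 points after thinning to 5000 UMIs and -16.4 points with no limit applied. Among cells within all 4 limits, the minimum was reached by 79.1% (75.8 to 82.1) in WT, 87.4% (85.4 to 89.3) in mgR and 69.1% (67.4 to 70.8) in mgR-LOS. After each cell was thinned to 5000 UMIs these shares were 74.9%, 82.8% and 66.8%, in the same order.

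**Figure D2:**
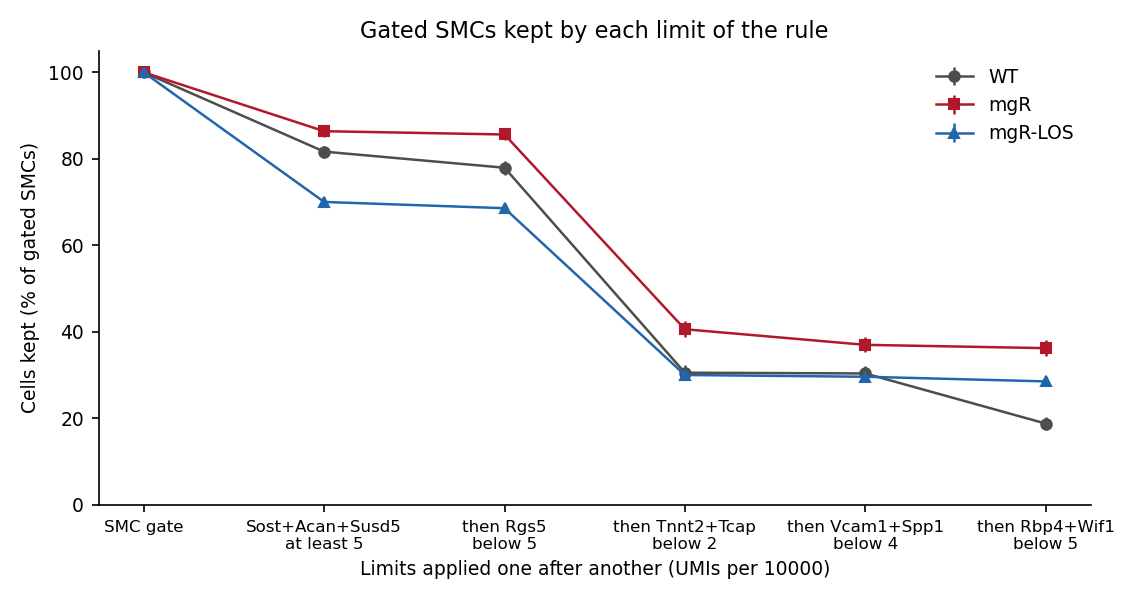
Share of gated SMCs kept (y axis, % of gated SMCs, with exact 95% intervals that are mostly smaller than the symbols) as the limits of the rule are applied one after another (x axis) in WT, mgR and mgR-LOS. The limit on Tnnt2+Tcap removes the most cells in every library, and the limit on Rbp4+Wif1 takes WT from 30.4% to 18.8% while mgR goes from 37.0% to 36.2%.

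Sost carried most of the selection. Its level in selected SMCs of WT was 1036 CPM (1013 to 1059), where CPM are UMIs of the gene per 1000000 UMIs summed over the cells. The mgR library had 905 CPM (890 to 919) and mgR-LOS 917 CPM (904 to 931). Sost alone reached the minimum in 77.2% of selected cells of WT, 65.1% of mgR and 73.2% of mgR-LOS. Acan alone did so in 0.746%, 8.71% and 3.66%. The level of Susd5 was 323 CPM in WT (310 to 336), 428 in mgR (418 to 438) and 277 in mgR-LOS (270 to 285). These levels were used by the rule and describe the cells.

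Of Sost, Acan and Susd5, Acan differed most between libraries. Its level in selected SMCs was 44.0 CPM in WT (39.5 to 49.0), 193 in mgR (186 to 200) and 99.5 in mgR-LOS (95.1 to 104). The order was the same over all gated SMCs, whose gate does not use Acan, with 34.3 CPM in WT, 168 CPM in mgR and 77.1 CPM in mgR-LOS. There the mgR level was 4.91 times the WT level (4.64 to 5.204), and the mgR-LOS level was 0.46 times the mgR level (0.44 to 0.48). The Acan intervals of the 3 libraries did not overlap, but neither did those of Sost, Susd5 or Npnt in these cells. Such a gap covers counting error only and does not set Acan apart. Over the same gated SMCs, Sost was 0.93 times as high in mgR as in WT and Susd5 1.31 times as high.

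Shares of cells with an Acan UMI followed the same order at equal depth. After thinning to 5000 UMIs, an Acan UMI was found in 15.4% (12.4 to 18.8) of selected SMCs of WT, 47.6% (44.5 to 50.7) of mgR and 30.7% (28.6 to 32.9) of mgR-LOS. Without thinning the shares were 27.2%, 75.4% and 42.7%. Thinning left out 17, 18 and 200 shallower cells. Leukocytes gated by Ptprc, which should lack aggrecan, showed an Acan UMI in 0 of 96 cells of WT, which allows a share of up to 3.77% by the exact interval, in 1.40% of mgR and in 1.08% of mgR-LOS at the same 5000 UMIs. Sost UMIs were found in 8.33%, 11.3% and 11.4% of these leukocytes, against 90.1%, 84.5% and 83.6% of all gated SMCs, which were not chosen by these transcripts. An Acan UMI was found in 12.9%, 43.3% and 23.8% of the gated SMCs at this depth. Before thinning the leukocytes had a median of 8335, 7917.5 and 6666 UMIs in WT, mgR and mgR-LOS.

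Other genes of cartilage were examined beside aggrecan. Sox9, the master regulator of chondrocytes, stood at 9.64 CPM in WT, 6.80 CPM in mgR and 3.65 CPM in mgR-LOS in selected SMCs. Col2a1, the main cartilage collagen, stood at 0.130 CPM in WT, 0.0607 CPM in mgR and 0 in mgR-LOS. Runx2, a regulator of bone formation, was at 0, 0.910 and 0.697 CPM. Sp7, Matn3 and Ucma had no UMI in selected cells of any library. Of 40 genes of cartilage and bone matrix and their regulators, only Mgp and Ank, both inhibitors of calcification, reached 50 CPM in WT or mgR. Hapln1, the link protein that ties aggrecan to hyaluronan in cartilage, was near 0, at 1.04 CPM in WT, 0.971 CPM in mgR and 0.751 CPM in mgR-LOS, and Has2, a hyaluronan synthase, was at 0.130, 0.0607 and 0.107 CPM. Scx, a transcription factor of tendon, stood at 46.3 CPM in WT, 88.7 CPM in mgR and 18.3 CPM in mgR-LOS.

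Cells with and without an Acan UMI differed in few other genes. After thinning, selected SMCs with Acan had 1.19, 1.16 and 1.31 times the Susd5 level of those without in WT, mgR and mgR-LOS, and 1.09, 1.03 and 1.11 times the Sost level. Both genes are part of the rule, and cells without Acan had to reach the minimum through them, so these ratios are shaped by the selection. Of 2520 genes compared, at 50 CPM or more, 0 were at least 1.5-fold higher in the Acan cells of every library, and only Mfap4 was at least 1.5-fold lower in every library. Below that minimum, the cartilage gene Comp had ratios of 3.66 (1.30 to 9.73), 1.59 (0.628 to 4.21) and 1.89 (1.21 to 2.91), at 20 CPM or less. Eln, the gene of elastin, was within 4% of equal, with ratios of 0.97, 1.00 and 0.96.

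The label was then checked against other SMCs. Sost stood at 20.9, 21.98 and 24.6 CPM in the fibroblast gate of WT, mgR and mgR-LOS, against 949, 881 and 755 CPM over all gated SMCs, whose gate does not use it. The gap was smaller for Acan in WT, with 26.3 CPM in fibroblasts against 34.3 CPM in gated SMCs, while mgR and mgR-LOS fibroblasts had 15.7 and 5.22 CPM. The levels were also set beside those of the Tnnt2/Tcap SMCs, that is, gated SMCs which met the same minimum of 5 and the other 3 limits but had Tnnt2+Tcap of 2 or more. These 4735 cells had 1236 CPM of Sost in WT, 1083 CPM in mgR and 1055 CPM in mgR-LOS, each above the selected SMCs of that library. Acan stood at 52.5, 185 and 102 CPM and Susd5 at 317, 411 and 259 CPM in the Tnnt2/Tcap SMCs, so that Susd5 was slightly higher in the selected SMCs of each library. Because both classes had to reach the same minimum, their likeness in the 3 transcripts was set by the selection. Over all gated SMCs, the median sum of 10.2, 12.2 and 8.17 UMIs per 10000 was below the 11.2, 12.9 and 10.5 of the selected SMCs in WT, mgR and mgR-LOS. The 1208 SMCs within the same limits whose sum was below 5 are called low-sum SMCs here.

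**Figure D3:**
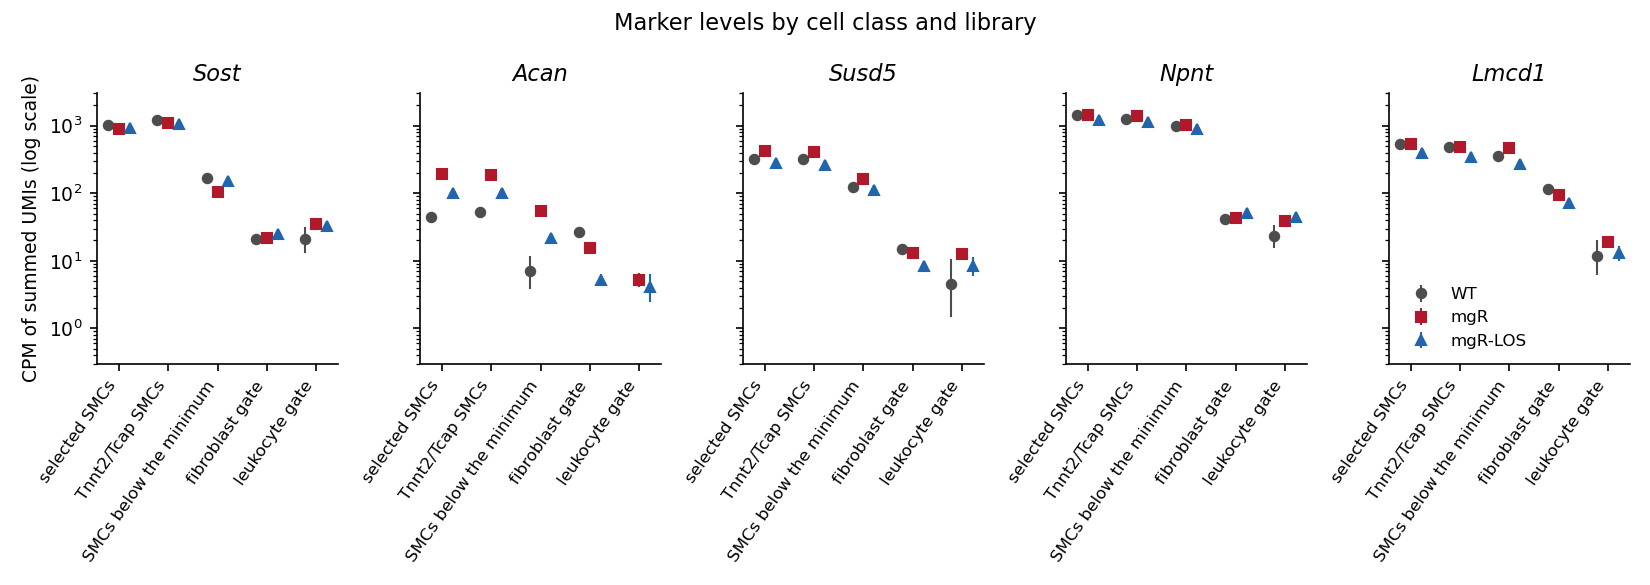
Levels (y axis, CPM of summed UMIs on a log scale, bars are exact 95% intervals) of Sost, Acan, Susd5, Npnt and Lmcd1 in selected SMCs, Tnnt2/Tcap SMCs, SMCs below the minimum, fibroblasts and leukocytes (x axis) of each library, with Acan in WT leukocytes at 0 and not drawn. Selected and Tnnt2/Tcap SMCs lie close together, and the mgR library has the highest Acan among the SMCs.

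Outside the rule, selected and low-sum SMCs were close. A gene was counted when its ratio was at least 1.5-fold in the same direction in all 3 libraries, among genes at 50 CPM or more in at least 1 of both classes in every library. Of 2493 genes, 0 were higher in selected SMCs (0%) and 3 were lower (0.12%). The 3 were Thbs1, Mt2 and Apoe. After thinning to 5000 UMIs 1 of them passed, a minimum of 3 or of 10 kept 2 of them, and without the mgR-LOS library 5 genes were higher and 10 lower. Without WT, or without mgR, 1 gene was higher and 5 were lower. Because the cells were sorted by their own transcripts, these ratios are a description and carry no test.

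The 15 genes with the highest ratios were then listed, by the lowest ratio over the libraries. Emb, the adhesion molecule embigin, stood at 152 CPM in selected against 51.7 CPM in low-sum SMCs of WT, at 169 against 88.0 CPM in mgR and at 152 against 106 CPM in mgR-LOS. Cdh6, cadherin 6, stood at 84.8 against 41.3 CPM, 93.3 against 48.2 CPM and 123 against 87.4 CPM. Both were higher in selected SMCs of every library but passed 1.5-fold only in WT and mgR, since the mgR-LOS ratios were 1.43 and 1.40. Npnt was 1.45 (1.38 to 1.52), 1.41 (1.35 to 1.47) and 1.36 (1.32 to 1.39) times as high in WT, mgR and mgR-LOS. Nox4, an NADPH oxidase that makes hydrogen peroxide, was 1.45, 1.53 and 1.35 times as high. Id4 and Id2, inhibitors of basic helix-loop-helix factors, had ratios of 2.01, 2.01 and 1.33 and of 1.45, 1.31 and 1.31. The growth factor Fgf2 had ratios of 1.43, 1.45 and 1.31, and the natriuretic peptide receptor Npr1 of 1.65, 1.65 and 1.33. Rgs4, Nav2, Fbxo30, Mgat4a, Thsd4, Sema3c and Myh10 completed the 15 highest, each with a lowest ratio between 1.29 and 1.39.

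The lowest ratios were those of Thbs1, Mt2 and Apoe. Thbs1, which encodes the matricellular protein thrombospondin-1, stood at 14.5 CPM in selected and 78.1 CPM in low-sum SMCs of WT, at 78.2 and 304 CPM in mgR, and at 21.3 and 104 CPM in mgR-LOS. It was thus 0.19 (0.14 to 0.24), 0.26 (0.23 to 0.28) and 0.21 (0.18 to 0.23) times as high, the lowest ratio of the 2493 genes in each library. The metallothionein Mt2 had ratios of 0.52, 0.37 and 0.56, and Apoe, the lipid carrier, of 0.58, 0.45 and 0.54. Mt1, S100a10, Nfkbia, Sncg, Nr4a2, Palld, Cebpd, Igfbp4 and Aspn followed. Of 23 contractile genes compared, 0 passed the fold, as for nearly all genes (0% higher, 0.12% lower), with a median log2 ratio of 0.09 against 0.01 for all genes.

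Some of these genes were also followed across all gated SMCs, which were placed in 4 groups of equal size by their Sost level in each library. These groups hold the same cells and Sost dominates the rule, so the values describe the selection further and are not separate evidence. From the lowest to the highest group Emb went from 53.7 to 209 CPM in WT, from 104 to 205 CPM in mgR and from 102 to 174 CPM in mgR-LOS. Susd5 went from 215 to 381 CPM, from 311 to 425 CPM and from 168 to 282 CPM. Thbs1 ran the other way, from 40.0 to 5.01 CPM in WT, from 283 to 66.4 CPM in mgR and from 115 to 21.6 CPM in mgR-LOS. Sncg, gamma-synuclein, went from 98.0 to 35.5 CPM, from 513 to 251 CPM and from 362 to 215 CPM. Not every gene was graded in each library, as Fgf2 went only from 183 to 201 CPM in mgR and Apoe there was lowest in the third group. Eln differed between the libraries, since it went from 6457 to 9601 CPM in mgR but only from 5460 to 5720 CPM in WT and from 3708 to 4248 CPM in mgR-LOS. Median UMI counts of the 4 groups lay between 14181.5 and 14583 in WT, 15045 and 15529 in mgR, and 8232 and 8542 in mgR-LOS.

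**Figure D4:**
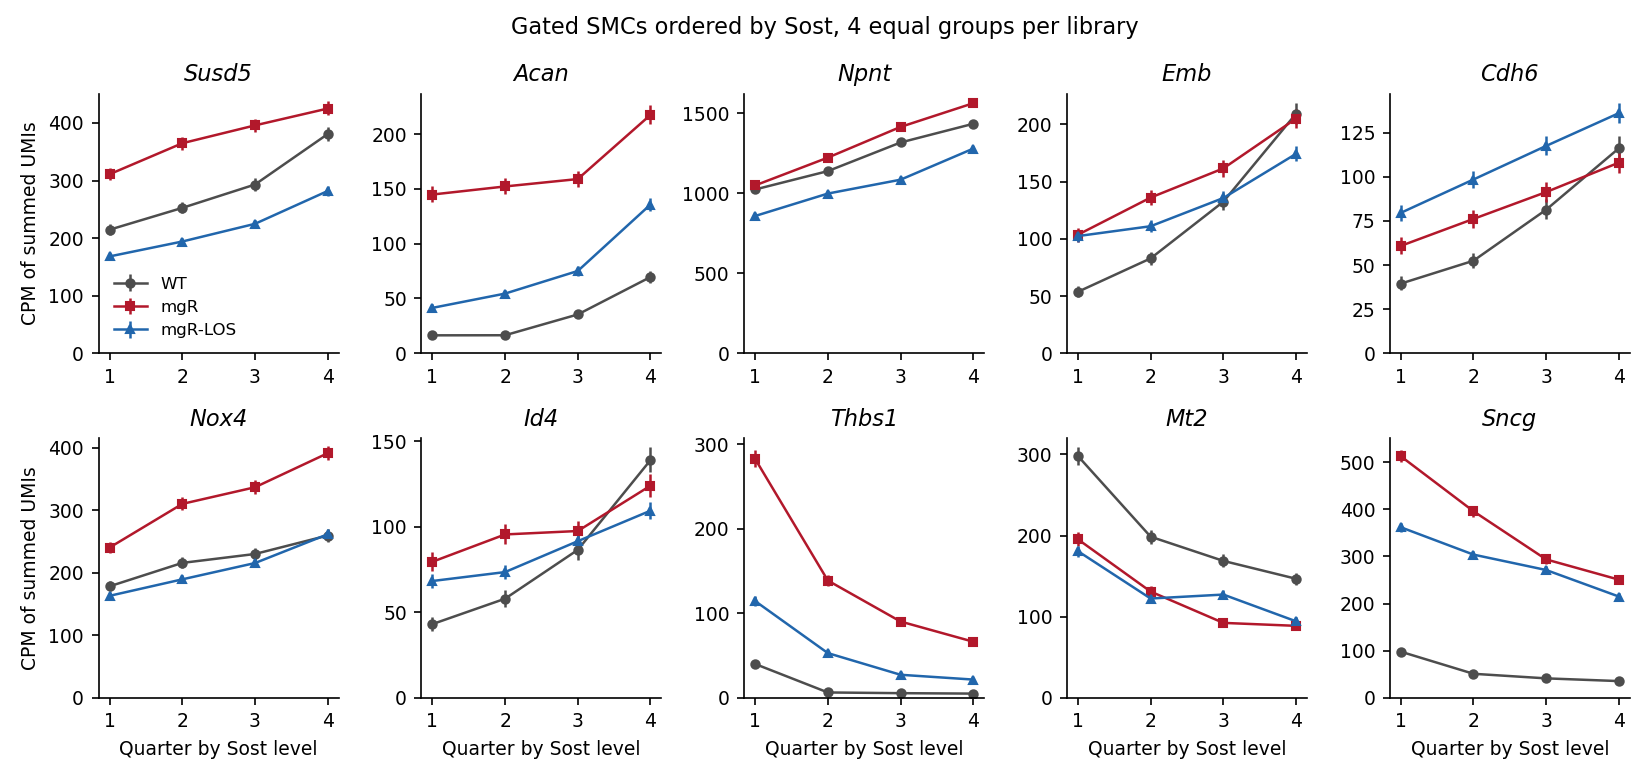
Levels (y axes, CPM of summed UMIs, bars are exact 95% intervals) of 10 genes in 4 equal groups of gated SMCs ordered by Sost (x axis, lowest group 1 to highest group 4) for WT, mgR and mgR-LOS. Susd5, Acan, Npnt, Emb, Cdh6, Nox4 and Id4 are higher at the Sost-rich end in every library, and Thbs1, Mt2 and Sncg are lower there.

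Cell by cell the measured correlations between the markers were modest. The correlation of log values across gated SMCs, which share a library and differ in depth, was 0.29 for Sost and Susd5 in WT (2849 cells), 0.23 in mgR (2883 cells) and 0.21 in mgR-LOS (7181 cells). For Sost and Acan it was 0.27, 0.15 and 0.24, and for Susd5 and Npnt 0.31, 0.41 and 0.28. Counts per cell were low, with no Acan UMI in 72.8%, 24.6% and 57.3% of selected SMCs of WT, mgR and mgR-LOS. Such counts limit the correlation that can be seen, so the values are a description and do not show how close the link is.

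Selected SMCs differed from the Tnnt2/Tcap SMCs in as few genes. Of 2495 genes compared, 1 was at least 1.5-fold higher in every library (0.0401%) and 2 were lower (0.0802%). Lgals3, galectin-3, was the higher gene, at 59.7 against 28.9 CPM in WT, 96.6 against 52.5 CPM in mgR and 55.2 against 36.4 CPM in mgR-LOS. Des, the intermediate filament desmin, and the chemokine gene Cxcl12 were the lower ones. Des stood at 126 against 248 CPM, 32.8 against 71.5 CPM and 45.5 against 133 CPM. Short of the fold in at least 1 library, Ccn2, the focal adhesion gene Tes, the filamin Flnc and Itga5, which encodes a fibronectin receptor chain, were higher in selected SMCs, with lowest ratios of 1.36, 1.31, 1.30 and 1.29. Dbp and Tef, output factors of the circadian clock, were lower, at 0.31 and 0.56 in WT, 0.67 and 0.81 in mgR and 0.50 and 0.67 in mgR-LOS.

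Genes of the Wnt pathway that sclerostin acts on stood at uneven levels in selected SMCs. Only 1 of 23 ligand and R-spondin genes reached 50 CPM in WT or mgR. Of 21 target and intracellular genes 5 did, and of 33 antagonist and receptor genes outside the rule 8 did. Lrp6, a target of sclerostin, stood at 73.1 CPM in WT, 61.3 CPM in mgR and 65.7 CPM in mgR-LOS, and Lrp5 at 15.4, 18.1 and 19.4 CPM. Lrp4, which anchors sclerostin in bone, was at or near 0, with 0.391, 0.182 and 0 CPM. Of 23 Wnt ligand and R-spondin genes, Wnt16 stood highest, at 62.4, 72.6 and 73.7 CPM, and 13 had no UMI in WT. Among target genes, Axin2 stood at 1.69, 1.52 and 2.73 CPM and Lef1 at 0, 0 and 0.107 CPM, while Nkd1 stood at 64.9, 60.9 and 54.3 CPM. Other secreted Wnt antagonists were led by Dkk3, at 202, 277 and 234 CPM, and Sfrp2, at 187, 123 and 190 CPM. Sostdc1, the closest relative of Sost, was at 0.130, 0 and 0.107 CPM. None of the 5 target and intracellular genes compared between mgR and WT, and of the 6 compared between mgR-LOS and mgR, passed 1.5-fold, where 7.81% and 7.77% of all genes did, a share at which so short a list need hold none. Sfrp2 was at least 1.5-fold lower in mgR than in WT and higher in mgR-LOS than in mgR.

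Npnt and its receptor were both abundant. The level of Npnt was 1422 CPM in WT (1395 to 1448), 1441 in mgR (1423 to 1460) and 1208 in mgR-LOS (1192 to 1224). Itga8 stood at 1537, 1248 and 1234 CPM and its partner Itgb1 at 1433, 1735 and 1399 CPM. That of Lmcd1 was 529 CPM in WT, 544 in mgR and 400 in mgR-LOS. Neither Npnt nor Lmcd1 passed 1.5-fold in either comparison of libraries.

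Fbn1, the targeted gene, was examined before the libraries were compared. It stood at 254 CPM in selected SMCs of WT, 73.1 CPM in mgR and 74.9 CPM in mgR-LOS, so the mgR level was 0.29 times the WT level (0.27 to 0.31), in the direction of the labels. Of 2829 genes at 50 CPM or more in WT or mgR, 117 were at least 1.5-fold higher in mgR (4.14%) and 104 were lower (3.68%), 221 in all (7.81%). Between mgR-LOS and mgR, which is the same mgR library, 111 of 2882 genes were higher (3.85%) and 113 lower (3.92%), 224 in all (7.77%). A high mgR value raises the ratio to WT and lowers that of mgR-LOS, so opposite changes in both comparisons are not a separate result. When mitochondrial, ribosomal protein, globin and ribosomal RNA-derived transcripts were left out of the totals, 110 genes were higher and 143 lower in mgR than in WT, which turned the balance, and 174 were higher and 112 lower in mgR-LOS than in mgR. For mgR over WT the balance also turned with at most 5% mitochondrial UMIs, with 142 genes higher and 152 lower. When each cell's UMIs were split in 2 parts, 115 were higher and 116 lower. The median log2 ratio of all genes was -0.02 for mgR over WT and -0.001 for mgR-LOS over mgR.

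Genes of the IGF and FGF axis were often higher in mgR, with 7 of 11 at least 1.5-fold higher in mgR than in WT and 1 lower, where 4.14% and 3.68% of all genes were. The same 7 passed the fold in Tnnt2/Tcap SMCs. Igfbp2, a secreted binder of insulin-like growth factors, had the largest ratio of the 2829 genes, at 89.8 CPM in WT, 1766 CPM in mgR and 464 CPM in mgR-LOS. The mgR level was 19.7 times the WT level (18.2 to 21.2), and the mgR-LOS level was 0.26 times the mgR level (0.26 to 0.27). In leukocytes it stood at 0, 63.0 and 9.41 CPM, and the source of these UMIs was not tested. Fgf2 stood at 70.6, 189 and 81.9 CPM in selected SMCs and its receptor gene Fgfr2 at 53.8, 107 and 43.7 CPM. Fgf1, Fgfr1, Igf2r and Igfbp4 were the other higher genes, and Fgfrl1 was the lower one. Igf2r, Igfbp2, Fgf2 and Fgfr2 were at least 1.5-fold lower in mgR-LOS than in mgR, 4 of 10 genes compared, where 3.92% of all genes were. Both comparisons share the mgR library, so this is not separate from the higher mgR levels.

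Some markers that earlier work gave to modulated SMCs were also higher in mgR, among cells whose Vcam1+Spp1 was below the limit of 4 UMIs per 10000. Of 11 compared, 6 were at least 1.5-fold higher, 0 lower and 5 neither, with a median log2 ratio of 0.67, where 4.14% of all genes were higher. Fn1, fibronectin, stood at 537 CPM in WT, 1825 CPM in mgR and 635 CPM in mgR-LOS. Tnc, tenascin C, stood at 27.4, 116 and 50.6 CPM, Postn, periostin, at 1420, 2257 and 1464 CPM, and Thbs1 at 14.5, 78.2 and 21.3 CPM. Lgals3 and Igfbp2 were the others. All 6 and Sparc were at least 1.5-fold lower in mgR-LOS than in mgR, 7 of 11 compared, where 3.92% of all genes were lower. The same mgR library enters both comparisons, so genes high in it tend to be low here, and the overlap is not a result. Col8a1 was under the 50 CPM minimum in both libraries, at 4.56 CPM in WT, 43.0 CPM in mgR and 9.97 CPM in mgR-LOS.

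Matrix genes moved in separate directions. Mgp was 3.78 times as high in mgR as in WT, at 17780 against 4710 CPM, and stood at 9130 CPM in mgR-LOS. In the elastic fiber list, Loxl2, a cross-linking enzyme, was higher in mgR (66.8 against 29.7 CPM), and Fbn1 and the microfibril genes Mfap4 (410 against 979 CPM) and Mfap5 (266 against 717 CPM) were lower, 4 of 10 genes in all, where 7.81% of all genes passed the fold. Eln stood at 6501 CPM in WT, 7572 CPM in mgR and 4799 CPM in mgR-LOS, and with Mfap4, Lox and Loxl2 was at least 1.5-fold lower in mgR-LOS than in mgR. Of 15 collagen chains compared, Col4a2 and Col18a1 were higher and Col14a1 lower in mgR than in WT. In mgR-LOS 6 of 15 were lower than in mgR, where 3.92% of all genes were, among them Col1a1 (1078 against 1671 CPM) and Col18a1 (1149 against 1811 CPM), and Col14a1 was higher. The small leucine-rich proteoglycans Prelp (337 CPM in WT, 109 CPM in mgR, 158 CPM in mgR-LOS), Ogn (890, 377 and 738 CPM) and Aspn (96.8, 31.4 and 68.9 CPM) were lower in mgR than in WT. They were 3 of 10 genes compared on the proteoglycan list, of which Cd44, the hyaluronan receptor, was higher and the other 6 passed the fold in neither direction.

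Proteases that cut aggrecan were present at modest levels. Adamts1 stood at 172 CPM in WT, 260 CPM in mgR and 205 CPM in mgR-LOS, and Adamts5, the main aggrecanase of cartilage, at 50.04, 56.7 and 87.0 CPM. Adamts4, the other classical aggrecanase, was near 0 at 1.04, 0.607 and 1.72 CPM. Among protease genes, Adamts1, Mmp2 and Plat were at least 1.5-fold higher in mgR than in WT and Htra3 was lower. The versican gene Vcan, a relative of Acan, stood at 55.8, 71.9 and 64.2 CPM and passed the fold in neither comparison.

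Signaling genes showed a mixed picture. Among TGF-β and BMP genes, Tgfb3, Inhba, Id1 and Ltbp2 were at least 1.5-fold higher in mgR than in WT and Smad6 and Ltbp4 lower. Tgfb3 stood at 74.7 CPM in WT, 131 CPM in mgR and 79.8 CPM in mgR-LOS. Id1, a BMP target, stood at 154, 327 and 336 CPM, so the mgR-LOS level stayed close to that of mgR. Of 3 Notch pathway genes compared between mgR and WT, the target Hes1 was higher, at 55.2, 162 and 278 CPM. The target Heyl was lower, where 7.81% of all genes passed the fold in either direction. Ccn2, connective tissue growth factor, did not differ between WT (2356 CPM) and mgR (2493 CPM) by the fold but stood at 828 CPM in mgR-LOS, 0.33 times the mgR level (0.33 to 0.34), and 5 of 12 genes of the stretch and YAP list were lower in mgR-LOS than in mgR, where 3.92% of all genes were. Between mgR and WT, 4 of the 12 were higher (Ankrd1, Crim1, Thbs1 and Ptgs2) and Ccn1 was lower. Agtr1a, the receptor that losartan blocks, was close to the limit of detection, at 3.26, 2.31 and 3.16 CPM.

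Of 23 contractile genes compared, 0 were at least 1.5-fold higher and 3 were lower in mgR than in WT, where 4.14% and 3.68% of all genes were. The 3 were Des (126 CPM in WT, 32.8 CPM in mgR, 45.5 CPM in mgR-LOS), Synpo2 (577, 293 and 434 CPM) and Ppp1r12a (801, 524 and 827 CPM). Myocd, the coactivator that drives contractile genes, stood at 136, 177 and 192 CPM. Dsp, desmoplakin, stood at 195, 53.5 and 70.0 CPM and Pdlim4, an actin-binding LIM protein, at 112, 24.2 and 64.2 CPM. Sphkap and Sncg were among the 10 highest ratios of mgR over WT at 100 CPM or more, at 5.38 and 5.81, with Fxyd5, Nfkbia and Dbp.

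Several genes differed between libraries in other cell types as well. Apoe stood at 457 CPM in WT, 89.0 CPM in mgR and 341 CPM in mgR-LOS in selected SMCs, and at 4933, 3032 and 4184 CPM in fibroblasts. Its ratio of mgR over WT was 0.95 in leukocytes, which had the highest level. The heat shock gene Hspa1a stood at 457, 157 and 455 CPM in selected SMCs and at 814, 537 and 838 CPM in leukocytes. Zbtb16, a zinc finger repressor induced by glucocorticoids, had the largest ratio of mgR-LOS over mgR, 8.44 (7.42 to 9.62), at 134 against 15.8 CPM. Its ratio was 5.16 in fibroblasts, 3.83 in leukocytes and 15.8 in endothelial cells. Arl6ip5 and Plekho1, with ratios of 2.23 and 2.18 in selected SMCs, had ratios of 2.29 and 1.74 in fibroblasts and 1.97 and 2.11 in leukocytes. Gm26802 had a ratio of 4.63 in selected SMCs and 4.61 in Tnnt2/Tcap SMCs, and of 1.00 in fibroblasts.

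**Figure D5:**
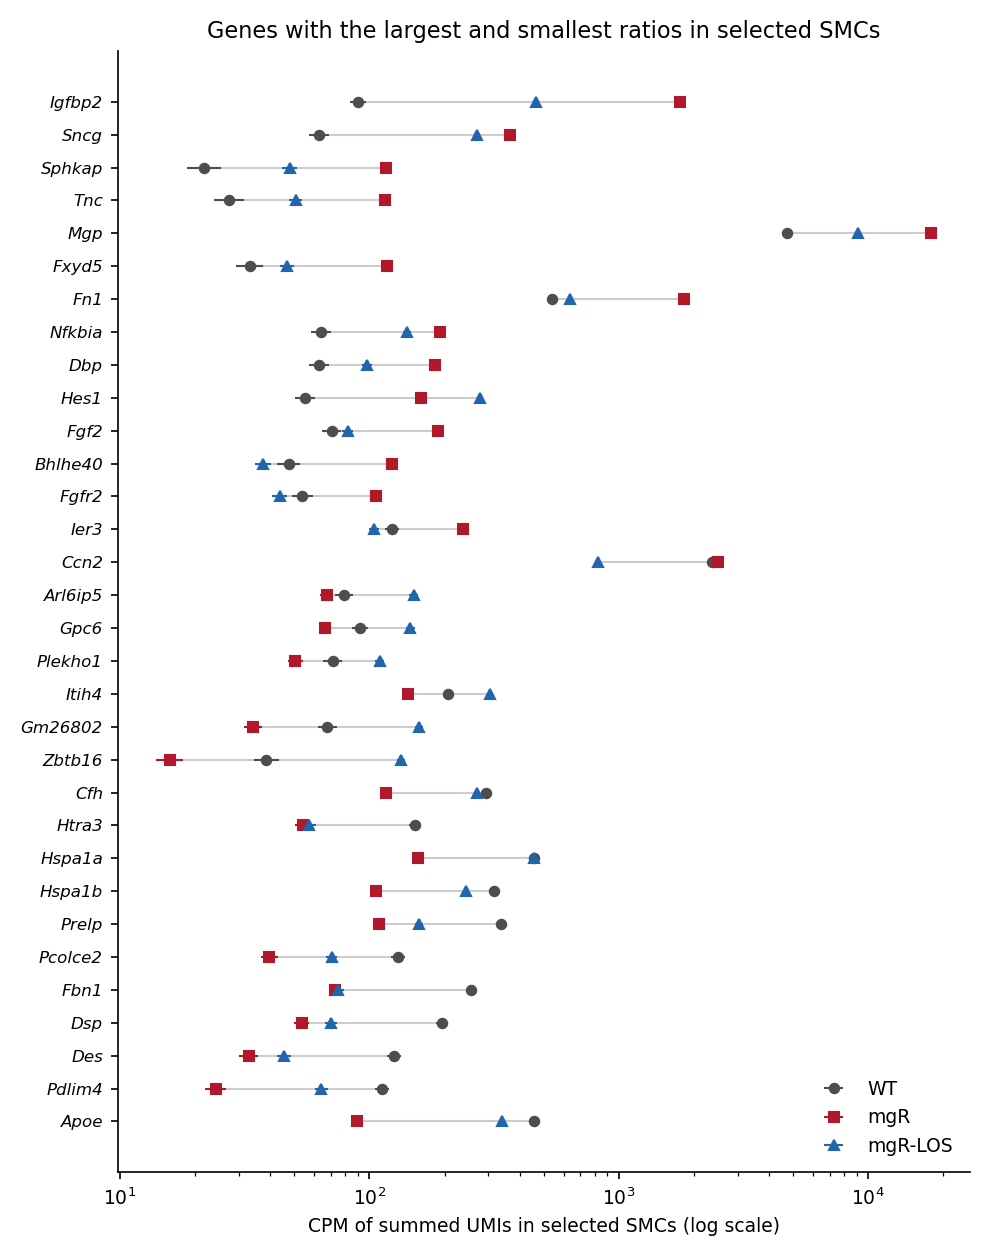
Levels in selected SMCs (x axis, CPM of summed UMIs on a log scale, bars are exact 95% intervals) of the genes with the 10 largest and 10 smallest ratios of mgR over WT and of mgR-LOS over mgR (y axis). For Igfbp2, Tnc, Mgp, Fxyd5 and Fn1 the mgR-LOS symbol lies between WT and mgR, and for Fbn1, Htra3 and Dsp it lies next to mgR.

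The Tnnt2/Tcap SMCs gave ratios of similar size between the libraries. In them 4.06% of genes were higher and 3.42% lower in mgR than in WT. Igfbp2 stood at 62.6 CPM in WT, 1570 CPM in mgR and 320 CPM in mgR-LOS, Fn1 at 401, 1578 and 478 CPM, and Mgp at 6911, 24354 and 10546 CPM.

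Markers of other cells were measured in the selected SMCs of each library. The 18 leukocyte markers summed to 27.1 CPM in WT, 136 CPM in mgR and 127 CPM in mgR-LOS. The most abundant were Cd74 at 8.99 CPM in WT and 22.1 CPM in mgR and Lyz2 at 22.8 CPM in mgR-LOS, and the T cell gene Cd3e was at 0 in WT and mgR. The 14 fibroblast markers summed to 4618, 4688 and 3766 CPM, led by Col1a2, which SMCs also express, while Pdgfra, a defining fibroblast gene, stood at 6.12, 4.61 and 7.40 CPM. The 15 endothelial markers summed to 163, 161 and 191 CPM, led by Fabp4 at 113, 109 and 137 CPM, with Cdh5 at 0.130, 0.364 and 0.483 CPM. Globin transcripts summed to 5.86, 20.6 and 45.6 CPM. The 28 immediate early and dissociation genes summed to 20127, 17068 and 16308 CPM, and Malat1 stood at 17653, 24498 and 39402 CPM. The part of these differences in the results was not tested. A doublet score called 2.99% of selected SMCs in WT, 4.21% in mgR and 9.80% in mgR-LOS, close to the 3.40%, 5.83% and 9.50% of all gated SMCs.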

How the data were processed

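The authors deposited, for each of 3 droplet libraries, UMI counts per barcode and gene (32285 genes, GRCm38/mm10) without normalization. The submitters' processing notes name Cell Ranger 6.0.1 for all libraries, whereas the matrix headers name 5.0.1 for WT and mgR and 6.0.1 for mgR-LOS. No column of per-sample values was left unused. Here, the rule was applied to the deposited counts with numpy 2.4.6, pandas 2.3.3 and scipy 1.17.1. Counts were summed per class and library and scaled to CPM, with exact Poisson intervals, exact conditional binomial intervals for ratios, Clopper-Pearson intervals for shares and Newcombe intervals for differences of shares, all at 95% and covering counting error only. With 1 library per condition no test was made. Tables of genes included those at 50 CPM or more. Genes were named when they belonged to the rule or to a gene list, or had the 15 highest or 12 lowest ratios against other SMCs (lowest or highest over libraries), or the 10 largest or smallest ratios between libraries at 100 CPM or more, leaving out rule, mitochondrial, ribosomal protein, globin and ribosomal RNA-derived genes. Doublets were kept. They were scored with scikit-learn 1.9.0 (25% artificial doublets, 10 components, a called share that grew with the number of barcodes) and left out as an alternative. The steps were tested on simulated data. The cells, lists and rules were chosen with earlier results of these data known. Alternatives varied the minimum (3 or 10), the mitochondrial limit (5%), the gene limit, depth (5000 UMIs), a split of each cell's UMIs, the exclusions, scaling, weighting and expression minimum. Promoters came from RefSeq (GRCm38.p6), with all 3 genes matched, and gene positions from GENCODE. Figures were drawn with matplotlib 3.10.9. Some results are not reported here.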

Additional observations from a re-analysis of the deposited data

How the results depend on the processing

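No paired analysis was possible because each condition had 1 library. The difference in share between mgR and WT was 17.4 points as reported, 13.5 with a minimum of 10, 7.998 with at most 5% mitochondrial UMIs, 13.4 after thinning to 5000 UMIs, 4.73 with no exclusions and 6.61 with the Rbp4+Wif1 limit dropped, an alternative chosen after seeing the data. Between mgR-LOS and mgR it was -7.69 points as reported, -4.26 with a minimum of 3, -5.48 with at most 5% mitochondrial UMIs, -4.75 after thinning and -16.4 with no exclusions. The direction held in each of these. The number of genes past 1.5-fold between selected and low-sum SMCs was 3 as reported, 5 with a minimum of 10, 8 with a minimum of 3, 5 with at most 5% mitochondrial UMIs, 1 after thinning, 7 with no exclusions and 65 of 11173 when genes with 10 UMIs or more were kept. Leaving out 1 library at a time, also chosen after seeing the data, gave 6 to 15, with 15 when mgR-LOS was left out. For mgR over WT the 221 genes became 127 at 100 CPM or more and 2272 with 10 UMIs or more, and for mgR-LOS over mgR the 224 became 136 and 2362, as both settings change how many genes are compared. For single genes and lists, 750 values under the alternatives stayed within their interval or side of the fold, 186 moved and 0 reversed. For the shares and counts of genes, 39 values stayed and 22 moved. Depth limits genes under about 50 CPM, and the mgR-LOS cells are the shallowest. The causes of these shifts were not tested.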
